A study of Mus musculus with 31 samples.

Results

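The neurofilament and microtubule-associated protein genes Nefl, Nefm, Nefh, Ina, Map1a, Map1b, Map2, Map4 and Map6 were followed in mouse hippocampus over 5 ages and 2 genotypes. Every mouse probe set that the array annotation lists under one of these 9 symbols was taken, which gave 23 of the 45037 mouse probe sets of the Affymetrix Mouse Genome 430 2.0 array. Total RNA of whole hippocampus came from male C57BL/6 mice that carried the Glud1 transgene (Tg) and from age-matched wild type (wt) mice of the same strain. Glud1 encodes glutamate dehydrogenase, and the study describes its overexpression as one in neurons. Tg mice were 10 days, 4.5, 9, 14.5 and 20 months old, with 3 mice at each age, and wt mice had the same ages with 3 mice each, apart from 4 at 10 days. One array was run per mouse, 31 in all. The array reads Glud1 in a stretch of the 3′ end that the transgene does not contain, and it therefore gives no check of the genotype labels.

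Neurofilaments are the intermediate filaments of neurons, built from light (Nefl), medium (Nefm) and heavy (Nefh) chains together with α-internexin (Ina), and they fill large and myelinated axons and set their calibre. Microtubule-associated proteins bind along microtubules and steady, space or link them. Map2 is the classic marker of dendrites, Map1b belongs to growing axons, Map1a and its Map1b relative are each cut into a heavy and a light chain, Map4 is found in many cell types, and Map6 protects microtubules from cold and drugs. In the hippocampus these genes are used mainly by neurons, and their products change as axons and dendrites mature.

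The values were the signals deposited for each array, transformed to log2 with quantile normalization across the 31 arrays. Signals below are these normalized values on a linear scale without unit, and changes are log2 fold changes ± standard error (SE) from limma with Benjamini-Hochberg adjusted p over the 26877 probe sets tested. A probe set was called higher or lower at an adjusted p under 0.05. Of the 23 probe sets, 22 passed the filter on low signals. The probe set that did not was Map4 1443702_at, whose signals ran between 2.186 and 77.64 over the arrays. Each gene was led by its probe set with the highest mean. Signals of different probe sets depend on their probes, and were not set against each other.

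Arrays of one age resembled each other in measures that are not biological. The log2 ratio of 3′ to 5′ Gapdh signal lay between -0.08 and 0.02 at 4.5 months and was at or below -0.14 on every array of another age. The same ratio of beta-actin was 0.709 to 0.963 at 9 months and at most 0.552 elsewhere. The brightest mouse probe set had a deposited signal of 22630 to 26610 at 14.5 months, against 31050 or more at the other ages. Age and these array measures cannot be told apart, and their part in the age changes below was not tested. All 9 markers of hippocampal fields and all 8 markers of neurons were on the array and passed the filter. So did all 8 markers of thalamus and neocortex and all 6 of choroid plexus, so passing is no check of the dissection. The summed signal of the 6 choroid plexus markers ranged from 768.6 to 48460 over the mice.

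**Figure D1:**
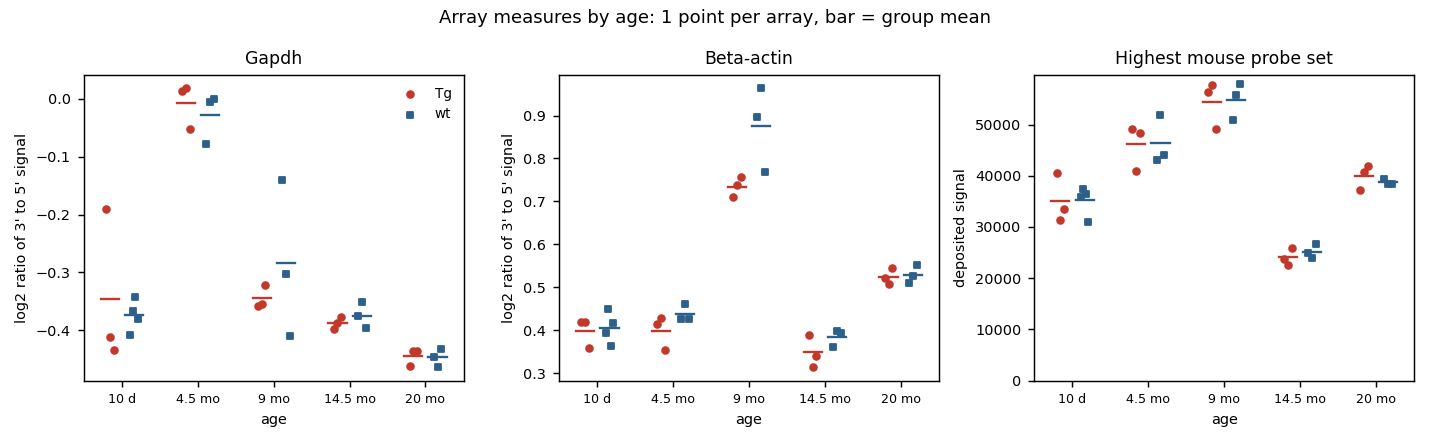
Array measures by age, 1 point per array with Tg (red circles) left of wt (blue squares) and bars at group means: the log2 ratio of 3′ to 5′ signal of Gapdh and of beta-actin, and the brightest deposited mouse signal (linear, axis starting at 0). Gapdh sets the arrays at 4.5 months apart, beta-actin those at 9 months, and the brightest signal those at 14.5 months.

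Promoter sequences of 5 of the 9 genes (Ina, Map1a, Map1b, Map2 and Map4) were held in a RefSeq promoter table of build GRCm38.p6, and Nefl, Nefm, Nefh and Map6 were not matched. The 120 bases just before the start are shown for Ina, Map1a and Map4, whose leading probe sets were called higher at 4.5 months and lower at 20 months, and for Map1b, which was called lower at 4.5 months. Capitals mark a GC box (GGGCGG or CCGCCC on the other strand), a CCAAT box (CCAAT or ATTGG) and the letters TATAAA. Ina lies on the plus strand (chr19:47014561-47014680), as do Map1a (chr2:121289482-121289601) and Map4 (chr9:109931654-109931773), while Map1b lies on the minus strand (chr13:99516603-99516722).
Ina: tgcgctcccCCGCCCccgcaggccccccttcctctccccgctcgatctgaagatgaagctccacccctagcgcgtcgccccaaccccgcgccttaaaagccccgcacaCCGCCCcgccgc
Map1a: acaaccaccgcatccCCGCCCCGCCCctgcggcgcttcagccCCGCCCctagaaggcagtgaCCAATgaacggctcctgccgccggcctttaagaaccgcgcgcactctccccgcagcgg
Map4: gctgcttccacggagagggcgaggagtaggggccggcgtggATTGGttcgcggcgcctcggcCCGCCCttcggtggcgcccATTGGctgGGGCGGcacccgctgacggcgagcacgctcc
Map1b: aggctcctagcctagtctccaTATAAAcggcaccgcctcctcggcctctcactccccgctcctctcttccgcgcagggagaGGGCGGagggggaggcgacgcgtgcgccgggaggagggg
In the full 250 bases before the start, a GC box was found 2 times for Ina, 4 times for Map1a, 3 times for Map4, 1 time for Map1b and 5 times for Map2, with a base shared by a pair of those of Map1a. These letters occur on either strand in 32.7% of the 32851 promoter windows of the same length in the table. CCAAT was found 1 time for Map1a and 2 times for Map4, against 33.8% of all windows with it, and TATAAA 1 time for Map1b, 99 bases before the start, against 12.4% of all windows. A second Map4 window held 0 GC boxes and 1 CCAAT. The cAMP response element TGACGTCA, present in 1.55% of all windows, was in none of the 6 windows. A match of letters is a description of the sequence and no evidence of binding.

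Between 10 days and 4.5 months, the passage from the developing to the young adult hippocampus, Map1a rose the most among the leading probe sets and Map6 fell the most (6 mice at 4.5 months against 7 at 10 days, both genotypes averaged). Map1a was 2.91-fold higher at 4.5 months and Map6 2.22-fold lower. Of the 22 probe sets, 11 were called higher, where 32.2% of all probe sets tested were higher, and 5 were called lower, where 31.3% of all were lower. By leading probe set 5 genes rose (Nefl, Nefh, Ina, Map1a and Map4), 3 fell (Nefm, Map1b and Map6), and Map2 did not pass the test. The median change of the 22 probe sets was 0.04, beside 0.0133 over all tested. In bulk RNA, fewer cells of a type and less RNA per cell cannot be told apart.

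The neurofilament chains moved in different directions. Nefm had signals of 2975, 3331 and 3677 (lowest, median and highest) at 4.5 months, against 4786, 5171 and 5439 at 10 days, and fell by 0.63 ± 0.05 on the log2 scale (adjusted p = 1.198e-11). Nefh, whose long tail carries many phosphate groups in mature axons, had 1465, 1698 and 1820 at 4.5 months, against 671.7, 1022 and 1281 at 10 days, a rise of 0.79 ± 0.12 (adjusted p = 1.18e-06). The mice of these ages did not overlap for either chain. Thus the medium chain was higher in the pups and the heavy chain in the young adults.

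Nefl was measured by a pair of probe sets that rose by unequal amounts. At 1454672_at every mouse was above every pup at 4.5 months, with signals of 12370, 13060 and 13660 against 8550, 8879 and 10180 at 10 days (0.53 ± 0.05, adjusted p = 1.857e-10). The leading Nefl probe set, 1426255_at, had 11910, 13910 and 14760 at 4.5 months, against 11690, 12530 and 14120 at 10 days. Its ages overlapped, its rise was 0.13 ± 0.05 (adjusted p = 0.02546), and without quantile normalization it was -0.10, while the median of all probe sets then stood at 0.138. Its call was also lost on leaving out Tg pup 2 or 3, or Tg mouse 2 or wt mouse 1 or 2 at 4.5 months, with values from 0.105 to 0.112, and in a fit without a trend of variance on signal (adjusted p = 0.0535).

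All 3 probe sets of Ina rose, with no overlap between the ages. The leading one had signals of 7200, 7972 and 8102 at 4.5 months, against 5801, 6213 and 6988 at 10 days (0.31 ± 0.04, adjusted p = 3.497e-07). The other two, 1418178_at and 1448992_at, were higher by 0.62 ± 0.08 and 0.63 ± 0.05. Ina is a chain that neurons make early and that joins the neurofilament of the adult.

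Among the microtubule-associated proteins, Map1a separated the ages most clearly. Its leading probe set had signals of 7587, 7587 and 7505 in Tg and 7240, 8567 and 7653 in wt mice at 4.5 months, against 2563, 2788 and 2982 in Tg and 2552, 2639, 2436 and 2425 in wt pups (1.54 ± 0.06, adjusted p = 5.522e-20). Every young adult of either genotype lay far above every pup. Map1a is the relative of Map1b that prevails in mature neurons. The second Map1a probe set was higher by 0.43 ± 0.14 with overlap between the ages (adjusted p = 0.00682).

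Map6 and Map1b fell. Map6 had 494.5, 674.6 and 793.1 at 4.5 months, against 1266, 1493 and 1541 at 10 days, at its leading probe set (-1.15 ± 0.10, adjusted p = 1.692e-11), and its second probe set changed by -1.36 ± 0.10. Neither overlapped between the ages. Map1b, which is made in growing axons, fell by 0.55 ± 0.12 at its leading probe set (2808, 3074 and 3461 at 4.5 months, against 3377, 4061 and 8321 at 10 days, adjusted p = 0.0004178). The highest value belonged to Tg pup 3, whose signal of 8321 stood apart from 4112 and 4583 in the other Tg pups, and without this mouse the change was -0.39. A second probe set of the same Map1b transcript, 1421851_at, fell by 0.79 ± 0.08 with no overlap (747.1, 848.4 and 1063 at 4.5 months, against 1295, 1466 and 1844 at 10 days).

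Map2 and Map4 gave mixed values. Map4 rose at its leading probe set (4885, 5222 and 5615 at 4.5 months, against 2847, 3377 and 3871 at 10 days, 0.61 ± 0.06, adjusted p = 8.743e-11), and the ages did not overlap. Its probe sets 1416091_at and 1416092_a_at, by contrast, were at -0.17 ± 0.08 and -0.11 ± 0.07 and did not pass the test. Map4 1439467_at was higher by 1.49 ± 0.30 from signals of 11.71 to 95.45 in pups, and with 50 added to each signal the change was 0.78. The leading Map2 probe set was at -0.05 ± 0.05 (adjusted p = 0.4331), and of the 4 Map2 probe sets only 1440699_at rose (0.59 ± 0.16).

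**Figure D2:**
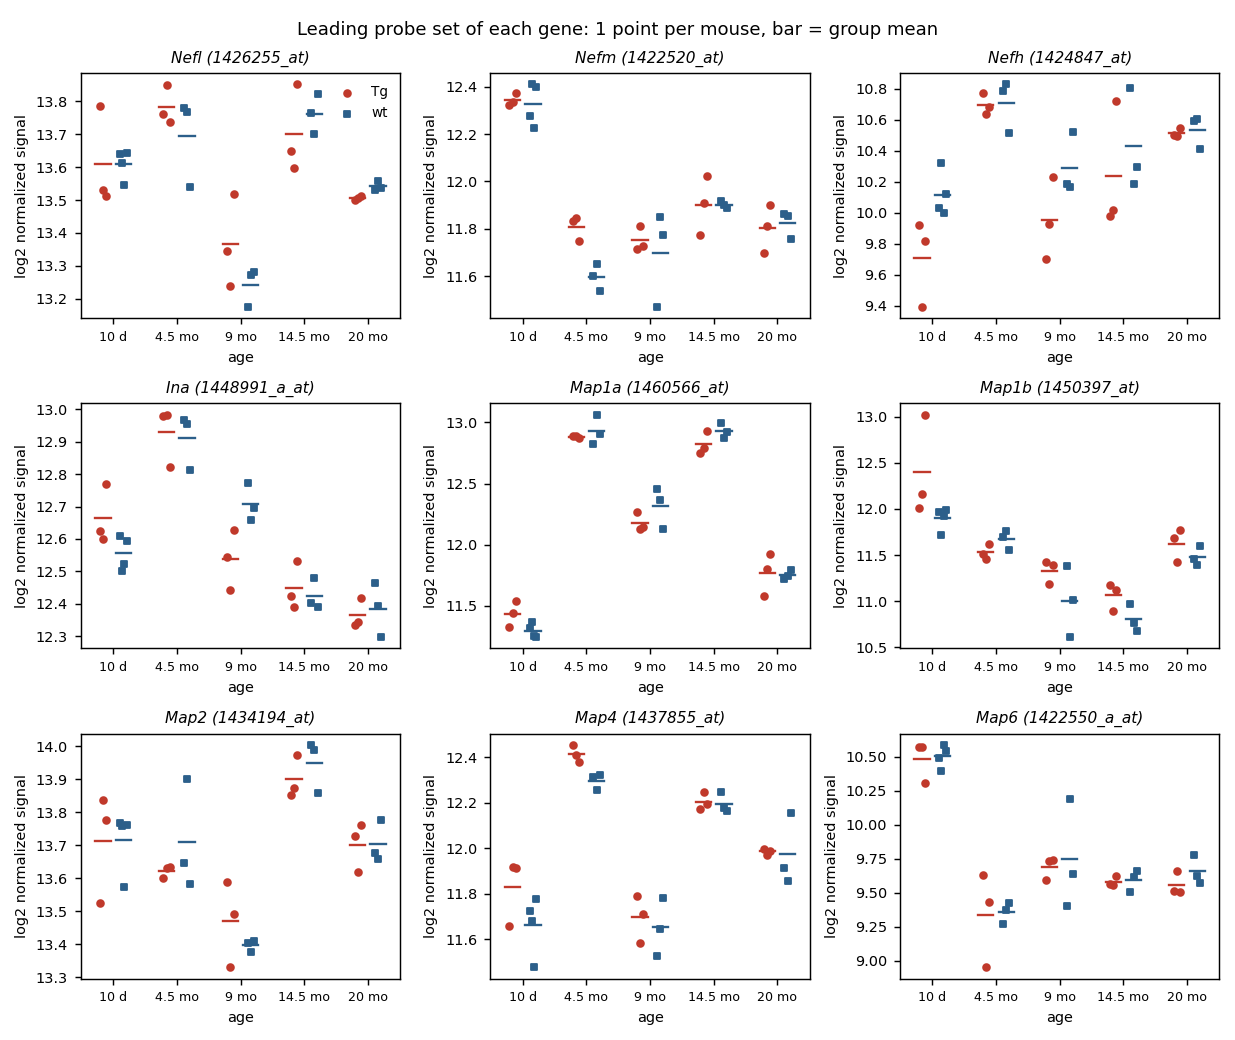
Signals of the leading probe set of each of the 9 genes by age (log2 of the normalized signal), 1 point per mouse, Tg (red circles) left of wt (blue squares), bars at group means. Map1a is high at 4.5 and 14.5 months and lower at 10 days, 9 and 20 months, Map6 and Nefm are highest at 10 days, and Ina is highest at 4.5 months.

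The rise of the neuronal list of markers ran alongside. Of 8 neuronal markers 6 were higher and 2 lower at 4.5 months, and their summed signal was 95020 to 100600 in Tg and 97190 to 101700 in wt mice at 4.5 months, against 73760 to 83800 in Tg and 76110 to 80550 in wt pups. All 7 measured markers of oligodendrocytes and myelin were higher, with a median change of 3.58. Of all probe sets tested 32.2% were higher and 31.3% lower in this comparison. The part of cell composition in the changes of neurofilaments and microtubule-associated proteins was not tested.

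Map1a, Map4, Map6, Ina, Nefm and Nefh changed in each genotype taken alone. Map1a was higher at 4.5 months by 1.45 ± 0.08 in Tg and 1.64 ± 0.08 in wt mice, and Map6 changed by -1.15 ± 0.14 in Tg and -1.15 ± 0.13 in wt mice. Nefm changed by -0.54 ± 0.08 in Tg and -0.73 ± 0.07 in wt mice, and Nefh by 0.99 ± 0.17 in Tg and 0.59 ± 0.16 in wt mice. For Map1b the change was -0.87 ± 0.18 in Tg (adjusted p = 0.0002844) and -0.23 ± 0.17 in wt mice (adjusted p = 0.2582). The test of age by genotype over the 5 ages did not pass for Map1b (adjusted p = 0.7198), and it called 0 of the 22 probe sets, where it called 0.0484% of all.

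Between 4.5 and 20 months, the aging of the adult hippocampus, more of these probe sets fell than rose. Of the 22, 10 were called lower at 20 months, where 18.1% of all probe sets tested were lower, and 3 were called higher, where 20.4% of all were higher (6 mice at each age). By leading probe set Nefl, Ina, Map1a and Map4 fell, Map6 rose, and Nefm, Nefh, Map1b and Map2 did not pass the test. The median change was -0.19 over the 22 probe sets and 0.03 over all tested.

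Map1a fell 2.21-fold. Its signals at 20 months were 3067, 3560 and 3879 in Tg and 3378, 3421 and 3558 in wt mice, against 7587, 7587 and 7505 in Tg and 7240, 8567 and 7653 in wt mice at 4.5 months (-1.15 ± 0.06, adjusted p = 1.11e-15). No old mouse came near a young adult. The second Map1a probe set also fell, by 0.51 ± 0.14 (adjusted p = 0.004074), with overlap.

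All 3 probe sets of Ina fell with no overlap. The leading one had 5031, 5292 and 5644 at 20 months, against 7200, 7972 and 8102 at 4.5 months (-0.55 ± 0.04, adjusted p = 4.071e-11), and the other two fell by 0.95 ± 0.08 and 0.88 ± 0.05. Every probe set of this chain was thus called in both comparisons, higher at 4.5 months than at 10 days and lower at 20 months than at 4.5 months. Its change in aging was -0.56 ± 0.06 in Tg and -0.53 ± 0.06 in wt mice.

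The classic neurofilament chains changed less in aging. Nefl fell by 0.21 ± 0.05 at its leading probe set (11590, 11760 and 12070 at 20 months, against 11910, 13910 and 14760 at 4.5 months, adjusted p = 0.001303), and was at -0.12 without quantile normalization (adjusted p = 0.0969). Its second probe set was at -0.11 ± 0.05 and did not pass (adjusted p = 0.09959). Nefm was at 0.11 ± 0.05 (adjusted p = 0.1068) and Nefh at -0.18 ± 0.12 (adjusted p = 0.2603). The old mice were close to each other at Nefh, with signals of 1450, 1441 and 1499 in Tg and 1544, 1558 and 1365 in wt mice.

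Map4 fell at 3 of its 4 tested probe sets, by 0.38 ± 0.06 at the leading one (3701, 4040 and 4561 at 20 months, against 4885, 5222 and 5615 at 4.5 months, adjusted p = 4.506e-06). The leading Map1b probe set was at -0.05 ± 0.13 and did not pass, but 1421851_at was higher with no overlap (1552, 1719 and 1963 at 20 months, against 747.1, 848.4 and 1063 at 4.5 months, 1.00 ± 0.08). Map6 rose by 0.26 ± 0.10 at its leading probe set (adjusted p = 0.0393) and fell by 0.59 ± 0.10 at 1457316_at (adjusted p = 1.898e-05). The rise was lost on leaving out any of Tg mouse 2 or wt mice 1 and 2 at 4.5 months, or Tg mouse 2 or wt mice 1 and 2 at 20 months (0.164 to 0.27). It was also lost without quantile normalization (0.23, adjusted p = 0.0728), with no filter on low signals (adjusted p = 0.0588), without the trend of variance (adjusted p = 0.0555) and with a replicate block (adjusted p = 0.0525). Map2 was at 0.04 ± 0.05 at its leading probe set and was higher by 0.69 ± 0.19 at 1421327_at (adjusted p = 0.006142).

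**Figure D3:**
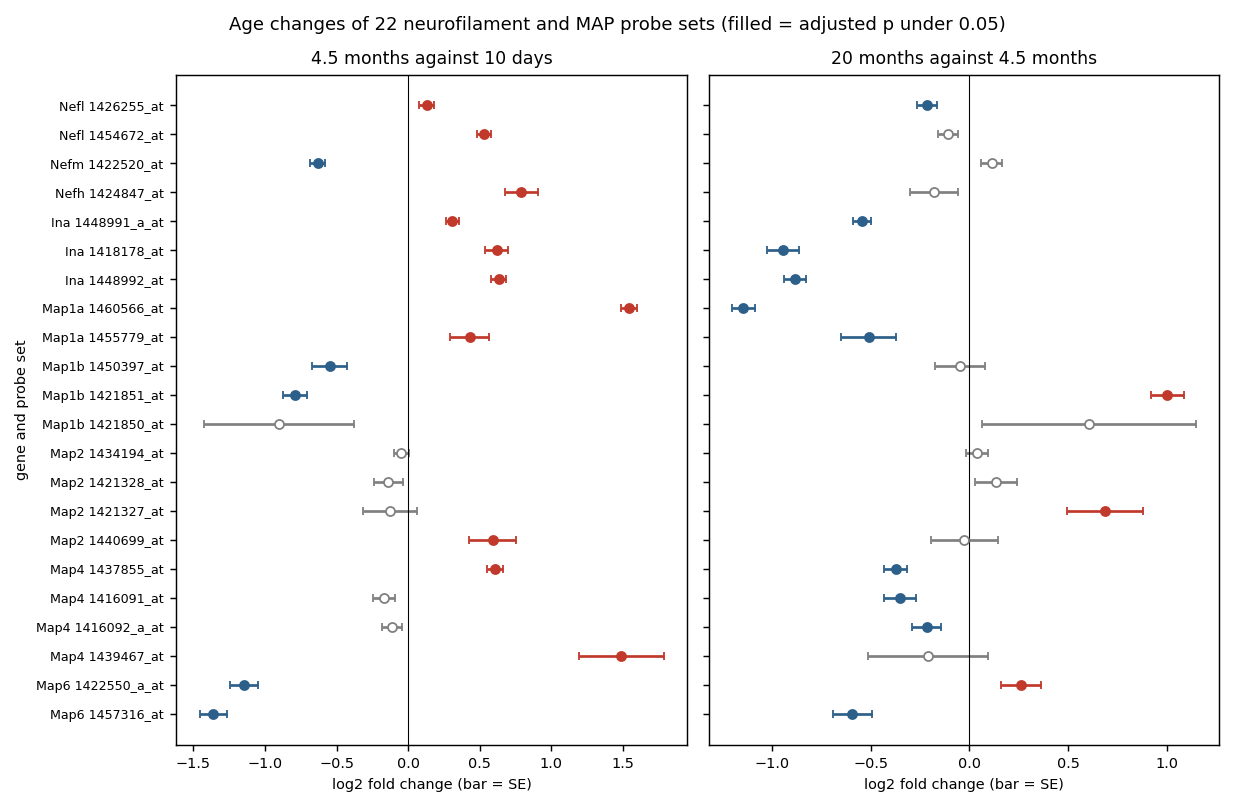
Log2 fold change (bars, SE) of the 22 tested probe sets at 4.5 months against 10 days (left) and at 20 months against 4.5 months (right). Filled points have an adjusted p under 0.05, red for higher and blue for lower at the later age. Map1a and Ina lie right of 0 in the first comparison and left of 0 in the second.

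The neuronal markers fell as well, with 5 of 8 lower and 0 higher at 20 months and a summed signal of 78780 to 79890 in Tg and 79290 to 81990 in wt mice, against 95020 to 100600 in Tg and 97190 to 101700 in wt mice at 4.5 months. Among them Slc17a7, the vesicular glutamate transporter, was at -1.92 ± 0.07 and Snap25, of the synaptic release machinery, at 0.06 ± 0.05. Myelin markers were neither called higher nor lower (0 of 7), and 5 of 7 microglial markers were higher, where 20.4% of all probe sets were higher and 18.1% lower. The part of the cell markers in the changes of the filament and microtubule genes was not tested.

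With 9 months in place of 4.5 months, the leading probe sets of Nefl and Map4 went the other way in part. Against 10 days, Nefl was at -0.31 ± 0.05 (adjusted p = 4.415e-06) and Map4 at -0.07 ± 0.06, while Ina was at 0.01 ± 0.04 and Nefh at 0.21 ± 0.12, the last 3 without passing the test. The second Nefl probe set, 1454672_at, was by contrast higher at 9 months than at 10 days (0.50 ± 0.05, adjusted p = 7.269e-10), with no overlap. At 20 months against 9 months the leading probe set of Nefl was at 0.22 ± 0.05 (adjusted p = 0.001119) and Map4 at 0.31 ± 0.06 (adjusted p = 9.629e-05), while Map6 was at -0.11 ± 0.10. Here too the other probe sets differed: Nefl 1454672_at was at -0.08 ± 0.05 and did not pass (adjusted p = 0.2475), and Map4 1416091_at and 1416092_a_at fell by 0.36 ± 0.08 and 0.35 ± 0.07 with no overlap.

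The changes of the leading Map1a probe set kept their direction, at 0.88 ± 0.06 for 9 months against 10 days and -0.49 ± 0.06 for 20 months against 9 months. So did, by leading probe set, those of Ina in aging (-0.25 ± 0.04) and of Nefm (-0.61 ± 0.05), Map1b (-0.98 ± 0.12) and Map6 (-0.78 ± 0.10) in development. Map1b 1421851_at, which fell by 0.79 at 4.5 months against 10 days, was higher at 9 months than at 10 days (0.48 ± 0.08, adjusted p = 6.418e-06).

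Comparisons of adjacent ages showed that the leading probe sets of several genes were low at 9 months. At 9 months against 4.5 months, 10 of the 22 probe sets were called lower and 4 higher, where 23.9% and 21.5% of all were lower and higher. By leading probe set Nefl, Nefh, Ina, Map1a, Map1b, Map2 and Map4 fell and Map6 rose. Map1a had signals of 4936, 4478 and 4516 in Tg and 5607, 5284 and 4478 in wt mice at 9 months, all below every mouse at 4.5 months (-0.66 ± 0.06, adjusted p = 2.183e-10). Map4 fell by 0.68 ± 0.06 and Nefl by 0.43 ± 0.05, both with no overlap, and Nefh by 0.58 ± 0.12 with overlap. Without quantile normalization Nefl was at -0.249.

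The other probe sets of Nefl, Map4 and Map2 were not called lower at 9 months against 4.5 months. Nefl 1454672_at was at -0.03 ± 0.05 (adjusted p = 0.6436), and Map4 1416091_at and 1416092_a_at were at 0.01 ± 0.08 and 0.13 ± 0.07, none of them called. The leading Map2 probe set fell by 0.23 ± 0.05, but without quantile normalization it was at -0.024 (adjusted p = 0.787). Map2 1421328_at and 1421327_at rose, by 0.47 ± 0.11 (adjusted p = 0.0006682) and 0.81 ± 0.19 (adjusted p = 0.001353). Thus the called changes of Map2 ran in both directions. The second Map1a probe set, 1455779_at, did not pass in any of the comparisons of adjacent adult ages, at -0.22 ± 0.14 for 9 against 4.5 months (adjusted p = 0.2033), -0.14 ± 0.14 for 14.5 against 9 months (adjusted p = 0.401) and -0.15 ± 0.14 for 20 against 14.5 months (adjusted p = 0.4553).

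At 14.5 months against 9 months the leading probe sets of Nefl, Nefm, Map1a, Map2 and Map4 rose and Ina fell. Over the 22 probe sets, 7 were called higher and 4 lower, where 28.2% and 23.1% of all were higher and lower. Map1a returned to 6872, 7085 and 7800 in Tg and 8188, 7520 and 7757 in wt mice at 14.5 months, above every mouse at 9 months (0.63 ± 0.06, adjusted p = 4.878e-10). Nefl rose by 0.43 ± 0.05 and Map2 by 0.49 ± 0.05. Without quantile normalization these stood near 0, at -0.001 (adjusted p = 0.986) and -0.005 (adjusted p = 0.952). The second Nefl probe set was at -0.08 ± 0.05 and did not pass (adjusted p = 0.221). Ina fell at its leading probe set only (-0.19 ± 0.04), with 1418178_at at 0.01 ± 0.08 and 1448992_at at -0.04 ± 0.05.

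At 20 months against 14.5 months Map1a fell again (-1.12 ± 0.06, adjusted p = 4.313e-15) and the leading Map1b probe set rose (0.62 ± 0.13, adjusted p = 0.0004986), each with no overlap. In all 9 of the 22 probe sets were called lower and 3 higher, where 15.3% and 18% of all were lower and higher. The leading Ina probe set was at -0.06 ± 0.04 and did not pass (adjusted p = 0.3198). Ina 1418178_at and 1448992_at changed by -0.45 ± 0.08 and -0.34 ± 0.05, both called lower with no overlap. Nefl, Map2 and Map4 fell by 0.21 ± 0.05, 0.22 ± 0.05 and 0.22 ± 0.06 at their leading probe sets. Without quantile normalization Nefl was at 0.127 (adjusted p = 0.094), Map2 at 0.174 (adjusted p = 0.0293) and Map4 at -0.149 (adjusted p = 0.0612). The brightest deposited signals on the arrays were lowest at 14.5 months, and the part of this in the values of Nefl and Map2 was not tested.

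Over all 5 ages, limma's F-test called 21 of the 22 probe sets in Tg mice (72.3% of all probe sets tested) and 20 of the 22 in wt mice (73.8% of all). The exception in Tg mice was Map1b 1421850_at, and those in wt mice were Map1a 1455779_at and Map4 1439467_at. The order of the medians of Map1a was 10 days (2563), 20 months (3490), 9 months (4726), 4.5 months (7587) and 14.5 months (7639), the last pair with overlapping mice. Nefm had medians of 5171 at 10 days and, at the 4 later ages, of 3331 (4.5 months), 3448 (9 months), 3833 (14.5 months) and 3653 (20 months), with overlap between neighbouring adult ages and none between any adult and the pups.

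Probe sets of one gene did not always move together. The 3 Map1b probe sets carry the same transcript accession in the annotation, and at 9 months against 4.5 months the leading one fell (-0.43 ± 0.13, adjusted p = 0.007708) while 1421851_at rose (1.27 ± 0.08, adjusted p = 6.451e-13). Over the 5 ages the median signal of 1421851_at was 1466 at 10 days, 848.4 at 4.5 months, 2111 at 9 months, 728.6 at 14.5 months and 1719 at 20 months, and that of the leading probe set was 4061, 3074, 2500, 1956 and 2951 at the same ages. The first alternated from age to age, and the second was lowest at 14.5 months. The third, 1421850_at, was scattered at 9 months, with signals of 111.9, 58.27 and 287.6 in Tg and 101.2, 2.722 and 63.65 in wt mice.

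Probe sets of Map2 and Map6 also differed from each other. Map2 1440699_at fell by 1.26 ± 0.17 at 14.5 months against 9 months (213.3, 232.4 and 236.1 at 14.5 months, against 425.6, 546.5 and 679.5 at 9 months), while the leading Map2 probe set rose by 0.49 ± 0.05, both with no overlap. Without quantile normalization 1440699_at was at -1.206, but the leading probe set was at -0.005 (adjusted p = 0.952), so its rise depended on the normalization. For Map6, 1457316_at fell by 0.84 ± 0.10 at 14.5 months against 9 months (adjusted p = 6.678e-08) and the leading probe set was at -0.13 ± 0.10 (adjusted p = 0.2831). The part of transcript isoforms in these differences was not tested.

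**Figure D4:**
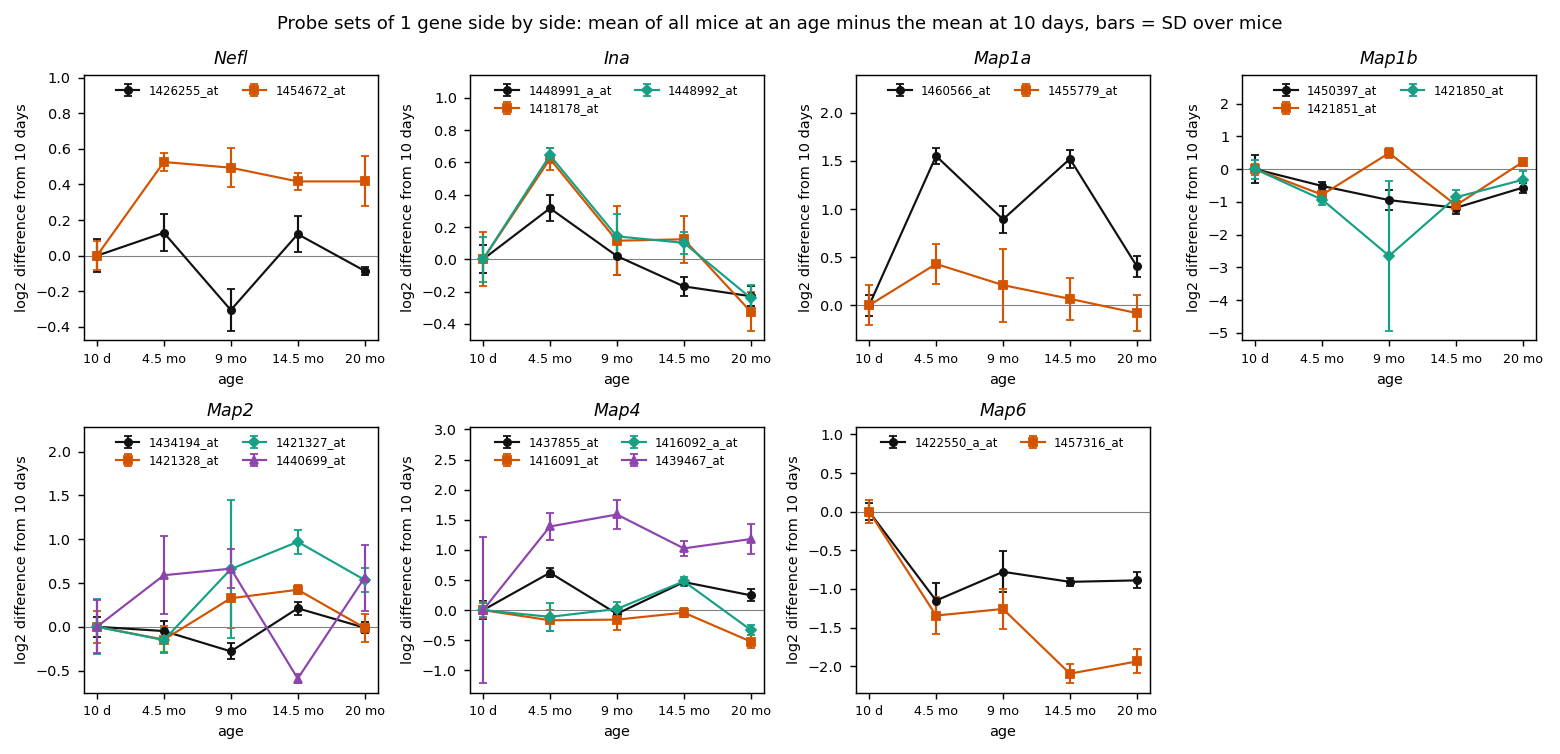
Mean of all mice at each age minus the mean at 10 days (log2, bars SD over 6 or 7 mice) for the probe sets of the 7 genes that have several, 1 line per probe set. The lines of Ina part at 14.5 months, where the leading one lies below its level at 10 days and the others above theirs. Those of Map1b part at 9 months. Those of Map2 part at 9 months, where the leading one lies below its level at 10 days and the others above theirs. They part again at 14.5 months, where only 1440699_at lies below its level at 10 days.

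In Tg against wt, the comparison that asks for an effect of the transgene, 0 of these probe sets passed the test at any age. Called probe sets among the 22 numbered 0 in limma at 10 days (0.0372% of all probe sets tested were called in either direction), 0 at 4.5 months (0% of all), 0 at 9 months (3.48% of all), 0 at 14.5 months (0% of all) and 0 at 20 months (0.026% of all). At an unadjusted p under 0.05 there were 5 at 10 days, 1 at 4.5 months, 5 at 9 months, 1 at 14.5 months and 0 at 20 months. Over all 26877 probe sets tested, 1914, 1601, 5157, 263 and 1199 met this threshold at the same ages. Whether the 22 met it more often than all was not tested. The difference averaged over ages also called 0 of 22 (0.00744% of all, with 2 of the 22 at an unadjusted p under 0.05), as did the F-test over the 5 ages (0.16% of all) and the difference at 9 months minus that at 4.5 months (0.0372% of all, with 3 of the 22 unadjusted). Unadjusted, 2255 of all probe sets passed for the averaged difference and 3070 for that at 9 months minus that at 4.5 months. On simulated data with independent noise and few probe sets changed, differences were set in Tg against wt at 9 months. The same fit recovered 65 of 100 probe sets changed by 1 and 34 of 100 changed by 0.5 on the log2 scale. The changed probe sets were drawn at random from all tested, so these shares do not describe the 22. At 9 months the SE of the leading probe sets ran from 0.063 (Ina) to 0.181 (Map1b). Differences of these sizes could be missed at noisy probe sets, such as Map1b 1421850_at with an SE of 0.766. Recovery on the real arrays may differ, and Tg against wt at other ages was not simulated.

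At some probe sets the Tg and wt mice did not overlap, without passing the adjustment. Groups this small can separate by chance, and how often they did so over all probe sets was not counted. No genotype difference is therefore drawn from these cases. Beside the cases below, Tg and wt did not overlap at Map6 1457316_at in pups and the leading Map4 probe set at 4.5 months. At later ages the same held for Map4 1416092_a_at and 1439467_at and for Map1b 1421851_at. Nefh had signals of 969.7, 671.7 and 903.5 in Tg pups, against 1049, 1281, 1022 and 1112 in wt pups, so that every Tg pup was below every wt pup (-0.41 ± 0.16, adjusted p = 0.5516). Averaged over the ages Nefh was at -0.19 ± 0.08 (adjusted p = 0.5216). Map1b had 4112, 4583 and 8321 in Tg pups, against 4015, 3377, 3883 and 4061 in wt pups at its leading probe set (0.50 ± 0.17, adjusted p = 0.4877), and was at 0.22 ± 0.08 over the ages (adjusted p = 0.4974). Beside these values of the pups, the summed signal of 6 choroid plexus markers was 1479, 2017 and 34530 in Tg pups, against 29230 to 43050 in wt pups. Of the 6 markers 0 were called, their median difference was -2.29, and their part in the values of Nefh and Map1b was not tested. At 4.5 months Nefm had 3645, 3677 and 3440 in Tg and 3106, 3222 and 2975 in wt mice, again with no overlap (0.21 ± 0.08, adjusted p = 0.7052). At 20 months the Tg and wt mice overlapped at the leading probe sets of Nefh, Map1b and Nefm. The leading Nefl probe set did not overlap at that age, with 11590 to 11690 in Tg and 11840 to 12070 in wt mice (-0.04 ± 0.07, not called).

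At 9 months, the age with the most probe sets called between the genotypes, the calls of 2 probe sets turned on single mice. Map2 1421327_at had signals of 921.4, 1191 and 1814 in Tg and 1084, 351 and 934.4 in wt mice (0.83 ± 0.27, adjusted p = 0.09097). It passed on leaving out Tg mouse 1 (1.05 ± 0.29, adjusted p = 0.0445), wt mouse 1 (1.14 ± 0.28, adjusted p = 0.0222) or wt mouse 3 (1.03 ± 0.30, adjusted p = 0.0485). Map1b 1421850_at, at 2.25 ± 0.77 (adjusted p = 0.1053), passed without wt mouse 1 (3.23 ± 0.73, adjusted p = 0.0163) or wt mouse 3 (2.89 ± 0.82, adjusted p = 0.0459). In each case the low value of wt mouse 2 stood against the rest.

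The leading probe set of Ina at 9 months lay lower in every Tg mouse (5973, 5568 and 6333 in Tg, against 7002, 6459 and 6639 in wt mice, -0.17 ± 0.06, adjusted p = 0.1271). At its other two probe sets, 1418178_at (0.06 ± 0.12) and 1448992_at (-0.19 ± 0.08), the genotypes overlapped. At 10 days Map4 1439467_at had 11.71, 95.45 and 18.26 in Tg and 74.07, 50.26, 85.65 and 86.3 in wt pups (-1.41 ± 0.40, adjusted p = 0.3273), and passed only without Tg pup 2 (-2.31 ± 0.29, adjusted p = 8.68e-05). Beside these values, 1 of 6 interneuron markers (Gad2, -0.45 ± 0.12), 1 of 8 markers of tissue beside the hippocampus (Cux2, -0.83 ± 0.20) and 2 of 9 markers of hippocampal fields (Dsp, 1.11 ± 0.30, and Prox1, 0.77 ± 0.22, both of the dentate gyrus) were called in Tg against wt mice at 9 months. Their part in the values of Ina, Map2 and Map1b was not tested.

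**Figure D5:**
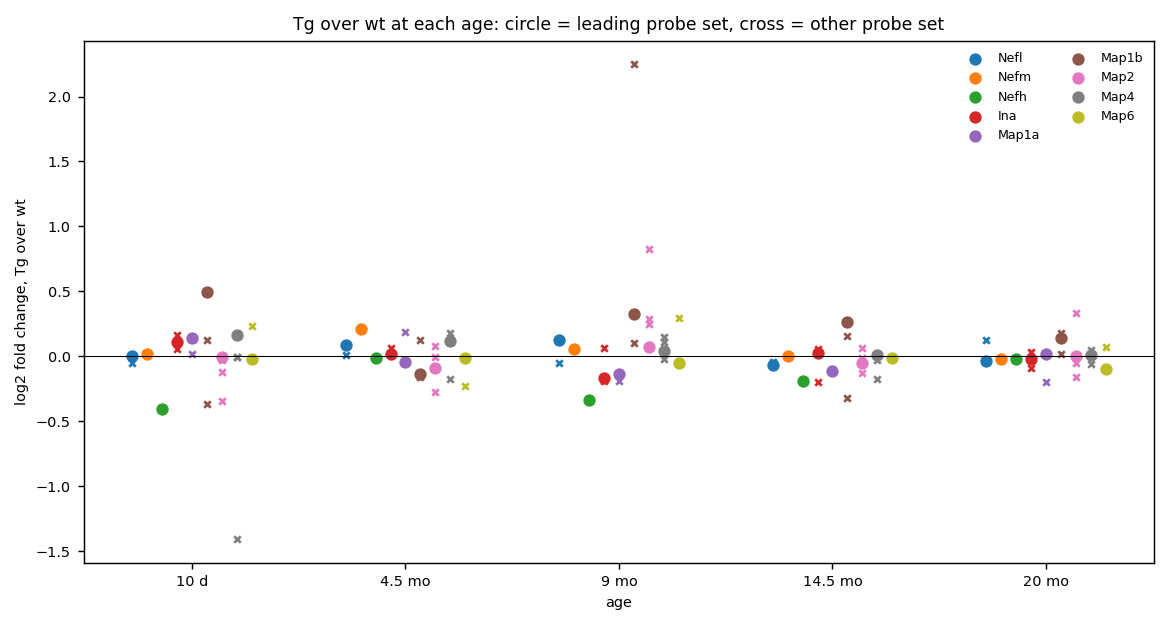
Log2 fold change of Tg over wt at each age for the 22 tested probe sets, circles for leading and crosses for other probe sets, coloured by gene. The leading probe sets lie between -0.41 and 0.50, and the points beyond are 1439467_at of Map4 at 10 days and 1421850_at of Map1b and 1421327_at of Map2 at 9 months.

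Other genes of the same machinery were counted by leading probe set, and their medians are over leading probe sets. Beside these counts, 32.2% of all probe sets tested were higher and 31.3% lower at 4.5 months against 10 days. At 20 months against 4.5 months 20.4% of all were higher and 18.1% lower. Of 10 intermediate filament genes of other cells, 1 was higher and 4 lower at 4.5 months than at 10 days. Gfap, the filament of astrocytes, rose by 1.38 ± 0.07, while Vim, the filament of immature and glial cells, fell by 0.92 ± 0.15, the nuclear lamins Lmna and Lmnb1 fell by 0.92 ± 0.11 and 0.89 ± 0.15, and peripherin (Prph) fell by 2.25 ± 0.60. At 20 months against 4.5 months Gfap fell (-1.18 ± 0.07) and Vim rose (0.64 ± 0.15) at their leading probe sets, and the other 8 did not pass. Of the 6 astrocyte markers, which include Gfap, 2 were higher and 1 lower in this comparison.

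Of 32 measured genes for other microtubule-binding proteins, 13 were higher and 16 lower at 4.5 months than at 10 days, with a median of -0.13. Doublecortin (Dcx), of migrating and newborn neurons, fell by 3.57 ± 0.10, the tubulin-binding Stmn2 by 1.32 ± 0.04 and tau (Mapt) by 1.07 ± 0.05, while the oligodendrocyte protein Tppp rose by 1.39 ± 0.05. At 20 months against 4.5 months 7 were higher and 14 lower. The end-binding proteins Mapre3 and Mapre2 went opposite ways, at -0.96 ± 0.06 and 0.75 ± 0.08.

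Enzymes that phosphorylate or dephosphorylate filaments and microtubules counted 12 of 19 lower and 4 higher at 20 months against 4.5 months and a median of -0.29, beside 0.03 over all probe sets tested. The activators of Cdk5, Cdk5r1 (-0.67 ± 0.05) and Cdk5r2 (-1.40 ± 0.13), fell while the kinase Cdk5 itself rose by 0.39 ± 0.05. In development 7 of the 19 were higher and 4 lower. Cdk5r1 was also the 1 gene of the 4 lists called between the genotypes at 9 months (Tg against wt, -0.34 ± 0.07, adjusted p = 0.006872), where 3.48% of all probe sets were called. Of 14 filament linkers and carriers 9 were higher and 3 lower at 4.5 months, led by the kinesins Kif5a (1.21 ± 0.04) and Kif5b (0.80 ± 0.05), the linker Plec (0.93 ± 0.08) and the small heat shock protein Hspb1 (1.40 ± 0.12), and 1 was higher and 6 lower at 20 months.

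The genes whose profile was most like each member were found by the Pearson correlation of leading probe sets over the 10 group means, among 12844 genes, and no test was made since the groups share arrays of each age. Map1a was followed most closely by Rasl10b (r = 0.995), Panx2 (0.994) and Ubqln4 (0.992), Map6 by Calu (0.994), Ssx2ip (0.994) and Sertm1 (0.993), and Nefl by Zbtb18 (0.992). Nefm was most like Dbi (0.986), Map2 most like Mmp7 (0.986) and Map4 most like Rab11b (0.97). The closest were lower for Map1b (Hexim2, 0.959), Nefh (Fech, 0.942) and Ina (Polr3f, 0.942). Among the leading probe sets of the 9 genes, Nefm and Map6 were alike (r = 0.909), as were Nefl and Map4 (0.803). Map1a ran opposite to Map6 (-0.798). All these profiles are of quantile normalized values. Without that step, Nefl and Map2 were at -0.001 and -0.005 at 14.5 against 9 months. Nefl 1454672_at and Map4 1416091_at and 1416092_a_at were not called at 9 against 4.5 months, where the leading probe sets of both genes fell. Whether the likenesses hold for other probe sets or without the normalization was not tested.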

How the data were processed

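Total RNA of hippocampus from 31 male mice was hybridized to Affymetrix Mouse Genome 430 2.0 arrays, 1 mouse per array, in 10 groups of genotype and age. The deposited table holds linear signal intensities that the authors made with MAS5, scaled to a trimmed mean of 500 on each array, without detection calls. The version and settings of MAS5 and a genome build were not given in the sources used here. The methods describe RMA values, SAM, Cyber-T and EDGE, and here the MAS5 values and limma were used in their place. The labels name separate mice but no litters, and the number of mice limits the precision. The deposit has 4 wt mice at 10 days, where the methods give fewer, and all were used.

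After 64 control probe sets were set aside, 45037 probe sets were log2 transformed, quantile normalization was applied across arrays, and 26877 that lay over the array median in 3 or more arrays were tested with limma 3.58.1 in R 4.3.3. The model had a mean for each of 10 groups and moderated variances with trend and robust settings. P values were adjusted by Benjamini-Hochberg over all tested probe sets, with calls at an adjusted p under 0.05. Of the mouse probe sets 34945 are annotated to a single gene, 932 to several and 9160 to none, and 34741 symbols were matched by gene ID. Genes were shown by the probe set with the highest mean. The members, the gene lists and the naming rule (all members, up to 4 genes of a list and comparison by smallest p, lists of 10 or fewer whole, and the 3 genes most like a member) were chosen with earlier results of these data known. The fit was tested on simulated data with independent noise and few probe sets changed. There it recovered 80 of 100 probe sets changed by 1 and 67 of 100 changed by 0.5 on the log2 scale at 4.5 months against 10 days. The real arrays gave many more calls in this comparison, so recovery on them may differ. Alternatives were no quantile normalization, an offset of 50, no filter or a filter at the 60th percentile, no trend, blocking by replicate number, dropping 1 mouse at a time, fits of the compared ages alone, 1 probe set per gene, 9 months in place of 4.5 months and, for Tg against wt, the methods' thresholds of a 1.3 fold change and 0.01. Replicate numbers were checked for pairing. Promoter letters came from a RefSeq table of GRCm38.p6.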

Additional observations from a re-analysis of the deposited data

Results flagged for a closer look

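In groups of 4 mice, which only the wt pups form, 22 probe sets were looked at for a mouse far from the others, and 1 was found. At the leading Map2 probe set wt pup 3 had a signal of 12190, while the other wt pups had 13860 to 13940, so the gap to the nearest was 0.953 of the whole range, above Dixon's critical value for 4 mice. Chance gives about 1 such group in 20.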

How the results depend on the processing

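Counts of called probe sets among the 22 stayed within 1.5 times of those reported for the age comparisons under every alternative run, except when each gene was counted by 1 probe set. Then 8 of the 9 genes were called at 4.5 months against 10 days, 5 at 20 against 4.5 months, 8 at 9 against 4.5 months, 6 at 14.5 against 9 months and 5 at 20 against 14.5 months, and 9 each in the tests of age in Tg and in wt mice, since fewer probe sets were counted. Leaving out 1 mouse at a time gave 15 to 17, 11 to 14, 14 to 15, 11 to 12 and 12 to 13 calls in the 5 age comparisons in that order, 20 to 22 for age in Tg and 19 to 21 for age in wt mice. For Tg against wt it gave 0 to 1 at 10 days, 0 to 2 at 9 months, 0 to 1 for the F-test over ages (Map4 1439467_at, adjusted p = 0.00412 without Tg pup 2) and 0 to 1 for the interaction (the same probe set, adjusted p = 0.0144), and 0 otherwise.

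Among 32 changes of single genes, 19 kept their call in all alternatives run. Without quantile normalization 5 changed sign: Nefl at 4.5 months against 10 days (-0.102, adjusted p = 0.114), Nefl and Map2 at 14.5 against 9 months (-0.001 and -0.005, adjusted p = 0.986 and 0.952) and Nefl and Map2 at 20 against 14.5 months (0.127 and 0.174, adjusted p = 0.094 and 0.0293). Of these only Map2 at 20 against 14.5 months passed the test the other way. In the same setting 4 calls were lost, Nefl (-0.124, adjusted p = 0.0969) and Map6 (0.23, adjusted p = 0.0728) at 20 against 4.5 months, Map2 at 9 against 4.5 months (-0.024, adjusted p = 0.787) and Map4 at 20 against 14.5 months (-0.149, adjusted p = 0.0612). With 9 months in place of 4.5 months, Nefl (-0.305) and Map4 (-0.073) changed sign against 10 days, as did Nefl (0.22), Map4 (0.307) and Map6 (-0.111) in aging, where Map4 against 10 days and Map6 did not pass. The cause was not tested. Without quantile normalization the share of higher calls at 4.5 months was 59.4%, against 50.7% as reported.

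Mice with the same replicate number did not deviate together (15 pairs, r between -0.112 and 0.055), so a pairing by number was not seen. Pairs with different numbers ran from -0.127 to 0.151. With so few mice per group the check cannot exclude a weak pairing. With a replicate block the calls were 16 at 4.5 months against 10 days and 12 at 20 against 4.5 months, and Map6 in aging lost its call (adjusted p = 0.0525). Fits of the compared ages alone could not be made for the tests that use all ages. No detection calls were used, so whether dim signals lie above background is not known.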
